A study of Rattus norvegicus with 2 samples.

Results

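The receptors described here are the G protein-coupled receptors for biogenic amines, neuropeptides, purines, prostaglandins, lysophospholipids and proteases that rat sympathetic neurons and the cells around them could use to read their surroundings. The members were all genes whose symbol matched a fixed list of receptor names (adrenergic, dopamine, serotonin, muscarinic, NPY, tachykinin, opioid, somatostatin, galanin, neurotensin, bradykinin, endothelin, angiotensin, P2Y, adenosine, prostaglandin E, sphingosine phosphate, lysophosphatidic acid and protease-activated), each represented by the probe set with the highest mean intensity over both arrays. This gave 79 genes, measured by 111 probe sets, out of 10411 genes with a single symbol. The match was by name, so it also took in Agtrap, which binds the angiotensin receptor and is no receptor itself. The single probe set of the adenosine receptor gene Adora3 carried a repeated symbol and was left out, and no endothelin receptor gene was analysed here.

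One array held RNA of neurons labelled as cultured with their myocyte target, and the other held RNA of sympathetic neurons cultured without that target. Per the labels, neurons were freed from flat cells by rinsing with 1 mM EDTA for 2 min, so neurons were separated by their weaker adhesion and not sorted by a marker. No strain, age or culture time was given in the labels used here, and the description field of the co-culture sample names neurons grown alone, against its own title. The study asked which genes accompany the growth arrest of sympathetic neurons on their target, per its design text. With 1 array per condition nothing below was tested, no value has a replicate check, and each statement compares these 2 arrays.

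These receptors share a fold of membrane-spanning helices and pass their signal to heterotrimeric G proteins. Receptors coupled to Gs raise cyclic AMP, those coupled to Gi or Go lower it and act on ion channels, and those coupled to Gq activate phospholipase C. In sympathetic neurons, alpha-2 adrenergic, NPY, Gi-coupled muscarinic, opioid and somatostatin receptors are known for restraining calcium channels and transmitter release. Bradykinin, tachykinin, P2Y and angiotensin receptors are known for raising excitability. Receptors for thrombin and lysophospholipids are widespread in fibroblasts, smooth muscle, endothelium and glia as well as in neurons.

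Promoter sequence is given for 4 receptor genes, chosen for their difference between the arrays after their values were seen. Tacr1 and Sstr3 had the lowest ratios of co-culture over alone among the genes above the signal filter that have a promoter listed, and F2r and S1pr3 had nearly equal signals in both. Each stretch is the 250 bases before the gene's start in RefSeq, written 5′ to 3′, with matches to any of 4 motifs in capitals on either strand: the GC box GGGCGG, the cAMP response element TGACGTCA, the TATA box TATAAA and the E box CAGCTG.
Tacr1 (GRCr8, chr4:116478367-116478616, plus strand): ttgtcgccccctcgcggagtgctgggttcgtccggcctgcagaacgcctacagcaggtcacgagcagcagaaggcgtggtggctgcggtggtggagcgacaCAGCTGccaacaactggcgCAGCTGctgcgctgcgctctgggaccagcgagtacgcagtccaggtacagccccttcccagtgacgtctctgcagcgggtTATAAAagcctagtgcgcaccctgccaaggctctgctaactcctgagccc
Sstr3 (GRCr8, chr7:111980251-111980500, minus strand): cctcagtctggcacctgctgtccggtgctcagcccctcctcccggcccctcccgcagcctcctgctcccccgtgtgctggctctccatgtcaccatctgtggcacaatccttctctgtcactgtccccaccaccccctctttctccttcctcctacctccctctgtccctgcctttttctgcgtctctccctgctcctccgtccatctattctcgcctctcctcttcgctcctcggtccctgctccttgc
F2r (GRCr8, chr2:28620580-28620829, minus strand): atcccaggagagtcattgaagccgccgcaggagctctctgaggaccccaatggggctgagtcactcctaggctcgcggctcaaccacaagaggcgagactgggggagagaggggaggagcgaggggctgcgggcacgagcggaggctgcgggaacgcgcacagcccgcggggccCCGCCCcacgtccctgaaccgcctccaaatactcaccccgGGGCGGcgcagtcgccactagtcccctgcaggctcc
S1pr3 (GRCr8, chr17:13946014-13946263, minus strand): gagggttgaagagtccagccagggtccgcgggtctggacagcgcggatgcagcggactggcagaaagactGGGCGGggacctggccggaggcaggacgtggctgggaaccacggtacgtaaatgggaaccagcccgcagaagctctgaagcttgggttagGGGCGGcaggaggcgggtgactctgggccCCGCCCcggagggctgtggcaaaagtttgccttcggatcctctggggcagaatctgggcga

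The Tacr1 stretch held 1 TATA box and 2 E boxes, the Sstr3 stretch none of the 4 motifs, the F2r stretch 2 GC boxes and the S1pr3 stretch 3 GC boxes. A promoter was listed for 64 of the 79 genes. A GC box stood in 39.1% of these, against 32.4% of the 27457 promoters of the same length (the first listed for each gene). A TATA box stood in 4.69% against 13.1%, an E box in 14.1% against 11.9%, and a cAMP response element in 1.56% against 1.70%. The median GC content was 62.2% in the receptor promoters and 52.0% in all promoters. Such matches describe the letters in this window and nothing about binding.

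Most receptor genes gave a low signal in both preparations. A probe set was taken as measured if its intensity reached the array median, 175.0 in co-culture or 185.7 alone, in at least 1 array. Of the 79 genes 11 did so and 68 did not, whereas 6368 of all 10411 genes passed. Probe sets differ in how strongly they bind their target, so the filter sorts probe sets and does not rank receptors by abundance. Just inside it was Tacr1 (186 alone), and just outside it was the somatostatin receptor gene Sstr1 (173 in co-culture). Of the 11, 9 reached the median in both arrays and 2, Tacr1 and F2rl1, reached it only in neurons alone. Genes that enter in this way must be lower in co-culture, so the counts over the 11 are a description.

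**Figure D1:**
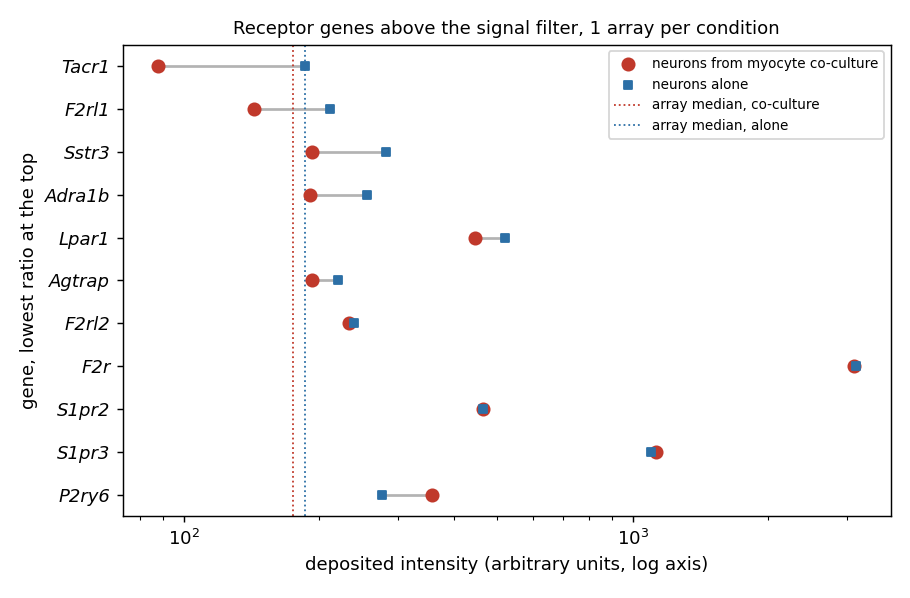
Deposited intensity (log axis, arbitrary units) of the 11 genes above the signal filter, with co-culture as red circles, neurons alone as blue squares and the array medians as dotted lines. Tacr1 (87.5 against 186) stands farthest apart, and F2r, S1pr2 and S1pr3 have overlapping symbols.

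Of the 11 genes above the filter, Tacr1 differed most on its brightest probe set. Tacr1 encodes the receptor for substance P, a peptide of sensory fibres that excites sympathetic neurons. Its signal was 87.5 in neurons from co-culture and 186 in neurons alone, 2.13-fold lower (log2 ratio -1.09). It was the only one of the 11 that was lower by 2-fold, as 0.628% of all genes above the filter were, and the only one lower by 1.5-fold, as 3.3% of them were. None of the 11 was higher by 1.5-fold. Its second probe set, below the filter, had 58.4 in co-culture and 73.4 alone, a log2 ratio of -0.33, so both probe sets were lower but by unlike amounts. The mean signal of Tacr1 lay under the range in which the spread of a probe set could be measured from genes with several probe sets, so no SD stands beside its ratio. With low values raised to the 40th percentile (119) it was -0.64, and with the mean over its probe sets it was -0.71. The related tachykinin receptor genes Tacr2 and Tacr3 lay below the floor of 39.6 in both arrays, under which no difference was read.

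The somatostatin receptors, which couple to Gi and restrain secretion, held a further member above the filter. Sstr3 had a signal of 193 in co-culture and 283 alone, 1.47-fold lower (log2 ratio -0.55). Sstr1 had 173 and 142, with a log2 ratio of 0.28, but its next probe set had 47.2 in co-culture and 78.9 alone, a ratio of -0.74. The direction for Sstr1 depends on the probe set. Sstr2 had 144 in co-culture and 156 alone (-0.12), and Sstr5 92.0 and 82.0 (0.17). Sstr4, named after its value was seen, had 32.6 in co-culture and 80.3 alone, 2.03-fold lower after the floor, but both values are in the dim range where the filter was not met. The ligand gene Sst had 205 in co-culture and 135 alone (1.51-fold higher). Sst reached the array median only in co-culture, which favoured a higher value there.

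Adrenergic receptors read the transmitter that these neurons release. Adra1b, the Gq-coupled alpha-1B receptor found mainly on target cells, had 191 in co-culture and 256 alone, 1.34-fold lower (log2 ratio -0.42). The SD of a single probe set at this signal was 0.34 on the log2 scale, from genes with several probe sets. Adra1b was the only adrenergic receptor gene above the filter. The autoreceptor genes Adra2a and Adra2c, whose products restrain noradrenaline release, had 75.0 in co-culture against 124 alone (-0.72) and 107 against 127 (-0.24). Both were thus lower in the co-culture array at signals below the filter. Of the other members, Adra1a, Adra1d, Adra2b, Adrb1 and Adrb3 had signals of 6.73 to 89.9 in co-culture and 7.17 to 80.9 alone. The dopamine receptors were dim too: Drd3 had 49.4 in co-culture and 80.3 alone (-0.70), and Drd5 had 45.5 and 62.8 (-0.47). Drd1 was under the floor in both arrays, and Drd2 and Drd4 were each under it in 1 of them.

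Protease-activated receptors are cut and switched on by thrombin and other serine proteases. F2r, the main thrombin receptor gene, had 3120 in co-culture and 3142 alone, a log2 ratio of -0.01 that was 0.08 under median scaling of the arrays. F2rl2, a cofactor thrombin receptor, had 233 and 240 (-0.04, or 0.05 under median scaling). These signals differed by far less than the SD of a probe set, so no direction is read from them. F2rl1, whose product responds to trypsin-like proteases, had 144 in co-culture and 212 alone, 1.47-fold lower (-0.56). The 3 genes are neighbours in the order F2rl1, F2r, F2rl2 on rat chromosome 2, with 1 protein-coding gene between each pair. Of this trio F2rl1 differed by more than the SD of a probe set. F2rl1 reached the array median only in neurons alone, however, so a lower co-culture value was a condition of its entry. F2r and F2rl2 reached it in both arrays. F2rl3 was under the floor in both arrays.

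Lysophospholipid receptors respond to sphingosine phosphate and lysophosphatidic acid, lipids of serum and of injured tissue that drive process retraction in many neurons. S1pr3 had 1125 in co-culture and 1099 alone (log2 ratio 0.03, or -0.07 under scaling to the spiked controls). S1pr2, another sphingosine phosphate receptor gene, had 463 and 464 (-0.00), whereas its other probe set, also above the filter, had 189 in co-culture and 273 alone (-0.53). The brighter probe set thus gave no difference for S1pr2 and the dimmer one a lower signal. Lpar1, the lysophosphatidic acid receptor of Schwann cells and many other cells, had 444 in co-culture and 519 alone (-0.22), and its second probe set 227 and 275 (-0.28). Both Lpar1 probe sets were lower by a similar amount, which was within the SD of a probe set (0.29). S1pr1 had 92.4 in co-culture and 68.6 alone (0.43) below the filter, and Lpar2, Lpar3 and S1pr5 were under the floor in both arrays.

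P2Y receptors answer extracellular nucleotides. P2ry6, a Gq-coupled receptor for uridine diphosphate, had 357 in co-culture and 276 alone, 1.29-fold higher (log2 ratio 0.37). It was the only one of the 11 with a ratio above 0.1 as deposited, and it stayed between 0.26 and 0.45 under every alternative tried for single genes. The SD of a probe set at this signal was 0.34, close to the ratio as deposited and above the lowest of these values. P2ry6 was measured by a single probe set. Its neighbour P2ry2, with no protein-coding gene between them, had 126 and 126 (0.00), and P2ry1 had 68.3 in co-culture and 58.6 alone (0.22). P2ry12, a receptor known from platelets and microglia and named after its value was seen, had 76.7 in co-culture and 44.0 alone (0.80), but 36.7 and 43.8 on its other probe set (-0.15). None of the 6 P2Y genes had a negative ratio on its brighter probe set, 4 being higher in co-culture (3 under scaling to the spiked controls, where P2ry2 turned lower) and 2 under the floor in both arrays. Without the filter 38.5% of all genes were higher. The 4 include P2ry2, whose signals were equal, and P2ry12, whose probe sets had opposite signs, so no class direction is read from the count.

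Agtrap, the angiotensin receptor binding protein, had 193 in co-culture and 220 alone (log2 ratio -0.19). The receptor genes themselves were dim. Agtr1a, the receptor through which angiotensin excites sympathetic neurons, had 104 in co-culture and 107 alone (-0.04), and Agtr2 had 52.7 and 76.0 (-0.53). Agtr1b was under the floor in both arrays.

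**Figure D2:**
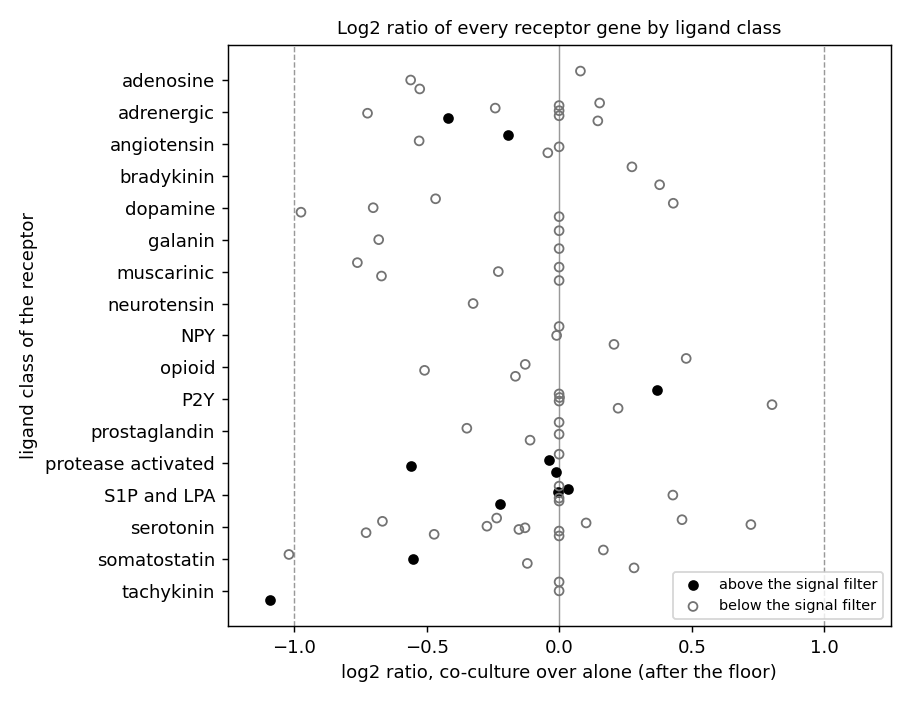
Log2 ratio of co-culture over alone for all 79 genes, grouped by ligand class (Agtrap stands in the angiotensin row), with filled symbols above and open symbols below the signal filter and dashed lines at 2-fold. Tacr1 at -1.09 and Sstr4 at -1.02 lie past 2-fold, both on the lower side, and the 22 genes under the floor in both arrays lie at 0.

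The remaining ligand classes had no gene above the filter. Chrm5 had 97.0 in co-culture and 164 alone (log2 ratio -0.76), and Chrm3 had 78.8 and 92.4 (-0.23). Chrm2, named after its value was seen, is the Gi-coupled autoreceptor of cholinergic terminals and had 59.9 in co-culture and 95.4 alone (-0.67). All 3 muscarinic receptor genes above the floor were lower in the co-culture array, and Chrm1 and Chrm4 were under it in both. Of all 4043 genes below the filter, 1823 were lower, 999 higher and 1221 under the floor in both arrays. Lower values were thus the more common ones at dim signal, and no class direction is read from such counts here or below.

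For the NPY receptors, whose ligand these neurons make, Npy4r had 111 in co-culture and 112 alone (-0.01). Npy2r, the presynaptic autoreceptor, had 61.4 and 53.2 (0.21), and Npy5r was under the floor. These NPY receptor ratios lay within the SD of a probe set above the filter (0.34), and the spread of dimmer probe sets was not measured. Galr2, a galanin receptor, had 87.2 in co-culture and 140 alone (-0.68), while Galr1 and Galr3 were under the floor in both arrays.

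Among opioid receptors, Oprl1, the nociceptin receptor, had 109 in co-culture and 119 alone (-0.13). Its next probe set had a ratio of 0.12. Oprk1, the kappa receptor, had 73.6 in co-culture and 105 alone (-0.51), with -0.38 on its next probe set, so the sign was the same on both. Oprd1 had 68.4 and 76.7 (-0.16), and Oprm1 was under the floor in neurons alone (55.2 in co-culture against 29.3). The 4 opioid receptor genes, 3 lower and 1 higher as deposited, were 2 and 2 after quantile normalization and 1 lower and 3 higher after a lowess correction.

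The 12 serotonin receptor genes were split, with 3 higher, 7 lower (6 to 8 lower over the scalings) and 2 under the floor in both arrays. Htr5a had 150 in co-culture and 139 alone (0.10), and Htr2a had 125 and 138 (-0.15, but 0.34 on its next probe set). Htr4, a Gs-coupled receptor named after its value was seen, was the highest of them at 0.72 (102 against 61.5), and Htr1d the lowest at -0.73 (8.56, under the floor, against 65.6). The other 8 genes were Htr1a, Htr1b, Htr1f, Htr2b, Htr2c, Htr5b, Htr6 and Htr7, and all serotonin receptor genes lay between 5.83 and 150 in co-culture and between 12.9 and 145 alone.

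Receptors for inflammatory mediators went both ways. Both bradykinin receptor genes were higher in co-culture on their brighter probe set: Bdkrb2 had 113 in co-culture and 93.4 alone (0.27, but -0.23 on its next probe set), and the inducible Bdkrb1 had 85.7 and 65.9 (0.38). Ptger3, the Gi-coupled prostaglandin E receptor of nerve terminals, had 118 in co-culture and 150 alone (-0.35), but 54.4 against 5.81 on its other probe set (0.46 after the floor). Ptger1 had 70.5 and 76.1 (-0.11), and Ptger2 and Ptger4 were under the floor. Among adenosine receptors Adora2b had 129 in co-culture and 122 alone (0.08), Adora1, which restrains transmitter release, 54.9 and 79.0 (-0.53), and Adora2a 58.4 alone with a value under the floor in co-culture. The neurotensin receptor gene Ntsr2 had 81.6 and 102 (-0.32).

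Over the 11 genes above the filter, 9 had a lower and 2 a higher signal in co-culture, and 52.7% of all genes above the filter were lower. Their median log2 ratio was -0.19, which is the value of Agtrap itself, and the 10 receptor genes without Agtrap had 8 lower, 2 higher and a median of -0.13, against -0.01 for all genes above the filter. The split of 9 lower and 2 higher was 6 and 5 under median scaling, where F2r, F2rl2 and S1pr2 turned to small positive ratios, 7 and 4 after quantile normalization or lowess, and 10 and 1 under scaling to the spiked controls. Under median scaling 38.7% of all genes were lower, and under scaling to the spiked controls 69.2%. Without the filter 38 of the 79 were lower, 19 higher and 22 under the floor in both arrays, where 49.7% of all genes were lower. The median was then 0 for the receptor genes and for all genes. At 1.5-fold, 9 of the 68 dim receptor genes were lower and 2 were higher (13.2% and 2.94%), against 9.15% and 3.36% of all genes below the filter. The split of these dim genes was the same under trimmed mean scaling, 7 lower and 2 higher under median scaling, and 13 lower and 2 higher under scaling to the spiked controls. It was even after 2 other corrections, with 4 lower and 5 higher after quantile normalization and 4 of each after lowess. At 2-fold, 1 of the 68 (Sstr4) was lower and none was higher, against 1.95% and 0.767%.

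**Figure D3:**
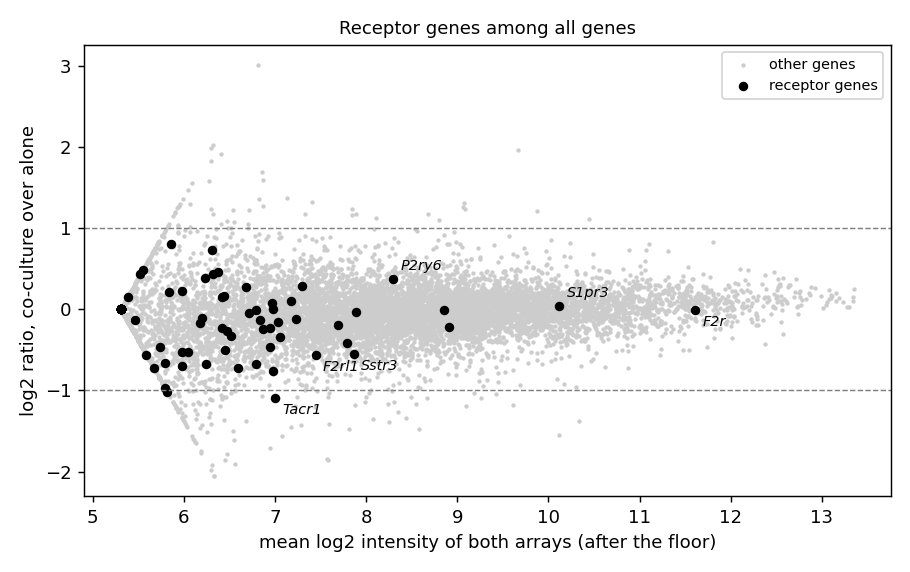
Log2 ratio of co-culture over alone against mean log2 intensity, with receptor genes in black and all other genes in grey, and dashed lines at 2-fold. Most receptor genes lie at the dim end, where grey points spread widely too, and F2r and S1pr3 lie near 0 at the bright end.

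Of the 24 receptor genes with several probe sets, the brightest and the next had the same sign in 6, opposite signs in 6, and at least 1 of them at a ratio of 0 under the floor in 12. The same sign was seen for Tacr1, Lpar1, S1pr2, Oprk1, Adora1 and Agtr1a. For S1pr2 this rests on a ratio of -0.00 for the brighter probe set, which changed sign in 4 of 10 alternatives. Opposite signs were seen for Bdkrb2, Htr2a, Oprl1, P2ry12, Ptger3 and Sstr1, all below the filter. Outside the genes above the filter, the direction of a receptor gene thus often rested on the choice of probe set.

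Cell markers differed between the 2 arrays beside these receptors. All 18 measured markers of sympathetic neurons had a lower signal in co-culture (17 of them under median scaling, quantile normalization or lowess, summed intensity 35960 against 45596, median log2 ratio -0.38), with the 3 brightest being Npy, Th and Prph. None of them was under the floor. Of the 20 fibroblast and smooth muscle markers, 14 were higher and 6 lower (11 and 9 under scaling to the spiked controls, summed intensity 62055 in co-culture against 56855 alone, median 0.12), Col1a1, Col1a2 and Vim being the brightest. Both preparations thus carried neuron and matrix-cell transcripts at high signal. The 6 lower markers of the fibroblast and smooth muscle list were Acta2 (-0.47), Myh11 (-0.29), Thy1 (-0.28), Myl9 (-0.24), Tagln (-0.23) and Des (-0.05). All but Thy1 are smooth muscle genes, of which Cnn1 alone was higher (0.26). Of the 19 cardiac markers on the array 4 were above the filter, and 6 were under the floor in co-culture and 5 alone (summed intensity 2364 against 1936). Of those 4, Nppb (309 in co-culture against 180 alone, 1.72-fold), Tnnt2 and Nppa were higher and Pln was lower (-0.02), with a median of 0.33. All 4 were higher under median or trimmed mean scaling, quantile normalization and lowess. Nppb and Nppa reached the array median only in co-culture, so entry favoured a higher value there, and these counts are a description. Without the filter the median of the 19 was 0.18. Cardiac markers below the filter went both ways. They ran from 1.58 for Myl2 (134 in co-culture against 44.8 alone) to -0.68 for Sln (4.94 against 63.4), both named after their values were seen. In the glial list 9 of 13 were above the filter, with 6 higher and 3 lower (5 and 4 under scaling to the spiked controls, 7247 against 6890). Of the 6, Egr2, Erbb3 and Gfap reached the array median only in co-culture. The macrophage list had 2 higher and 6 lower (5 to 7 lower over the scalings, 2505 against 2751), and the endothelial list had 1 of 9 above the filter (1190 against 1218). In the macrophage list Csf1r and Aif1 reached the median only in neurons alone, and C1qc and Fcgr3a only in co-culture. Such entry partly fixed the glial and macrophage splits, so they are a description. Fewer cells of a type and less RNA per cell cannot be told apart in such samples, and the part of these markers in the receptor values was not tested.

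For the lists that carry the receptor signal, counts of lower genes stand beside the 52.7% of all genes above the filter that were lower as deposited. That share was 38.7% with the arrays scaled to their medians and 69.2% with them scaled to the spiked controls. In these lists Gng8, Prkcb and Sst reached the array median only in co-culture, and Adcy2 and Prkca only in neurons alone. The direction counts are thus a description. Of 16 measured G protein subunits 11 were lower and 5 higher (9 to 14 lower over the scalings, median log2 ratio -0.20), and 3 were past 1.5-fold, all lower, where 5.23% of all genes stood in either direction. These were Gna11, a Gq-family subunit (187 in co-culture against 323 alone, -0.78), Gnao1, the Go subunit abundant in neurons (424 against 711, -0.74), and Gnai2, a Gi subunit (1135 against 1774, -0.64). Under median scaling Gnai2 was no longer past 1.5-fold, and under scaling to the spiked controls Gng3 was past it too. Each of the 3 was measured by a single probe set, and each ratio was larger than the SD of a probe set.

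Of 9 measured RGS proteins, which shorten G protein signals, 8 were lower (5 under median scaling, median -0.09), and Rgs9 was past 1.5-fold (195 in co-culture against 313 alone, -0.69), joined by Rgs7 under scaling to the spiked controls. Of 16 measured effectors and kinases downstream (adenylyl cyclases, phospholipase C beta isoforms, protein kinases A and C) 11 were lower and 5 higher (11 to 14 lower over the scalings, median -0.18), none at 1.5-fold. The brightest were the protein kinase A regulatory subunits Prkar1a (1758 against 1695, 0.05, but -0.08 on its next probe set) and Prkar2a (1644 against 1582, 0.06, but -0.79 on its next probe set). The arrestin and receptor kinase list had 2 of 7 genes above the filter: Grk6 with 649 in co-culture and 583 alone (0.15, but -0.81 on its other probe set) and Grk2 with 198 and 244 (-0.30).

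Of 9 measured genes for peptide ligands and amine synthesis 7 were lower under every scaling (median -0.43 as deposited), where 52.7% of all genes were lower as deposited. Npy, Th and Dbh among them are also in the sympathetic neuron list, so these lists are not independent. As deposited 4 of the 9 were past 1.5-fold, where 5.23% of all genes above the filter stood in either direction. Gal was not past it under median scaling, and Sst was not under scaling to the spiked controls. Th was past it as well after quantile normalization. Pnoc, the nociceptin precursor whose receptor is Oprl1, had 278 in co-culture and 595 alone (2.14-fold lower). Penk, the precursor of enkephalins, ligands of the delta receptor Oprd1, had 600.3 and 1142 (1.90-fold lower). Gal, the ligand of Galr2, had 402 in co-culture and 635 alone (1.58-fold lower), and Sst was the higher one, as given above. The receptor ratios stood at -0.13 for Oprl1, -0.16 for Oprd1 and -0.68 for Galr2, all at dim signals. Sstr3, the somatostatin receptor gene above the filter, had a ratio opposite in sign to that of Sst. Since Sst passed the filter only through co-culture, nothing is read from that contrast.

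Enzymes that make or remove lipid, nucleotide and peptide ligands had 6 of 8 measured genes higher in co-culture (5 to 7 over the scalings, median 0.13) and none at 1.5-fold. The brightest were the prostaglandin E synthase Ptges3 (3294 in co-culture against 2976 alone, 0.15) and the lipid phosphatase Plpp1, which removes lysophosphatidic acid (1977 against 1825, 0.12). The list of other transmitter and peptide receptors also holds the RAMP genes, whose products are accessory proteins of receptors and no receptors themselves. Of its 32 genes on the array 7 were above the filter, and 6 of the 7 were lower (7 under scaling to the spiked controls, median -0.29), none at 1.5-fold as deposited. Without Ramp1, Ramp2 and Ramp3 there were 4 receptor genes, of which Adcyap1r1, Gabbr1 and Gabbr2 were lower and Avpr1a higher (0.09). The brightest were Gabbr1, a subunit of the GABA-B receptor (912 in co-culture against 1232 alone, -0.43, with lower signals on all 4 of its probe sets above the floor), and Adcyap1r1, the receptor for the preganglionic peptide PACAP (567 against 692, -0.29). The second probe set of Adcyap1r1 had 53.9 in co-culture and 154 alone (-1.52).

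**Figure D4:**
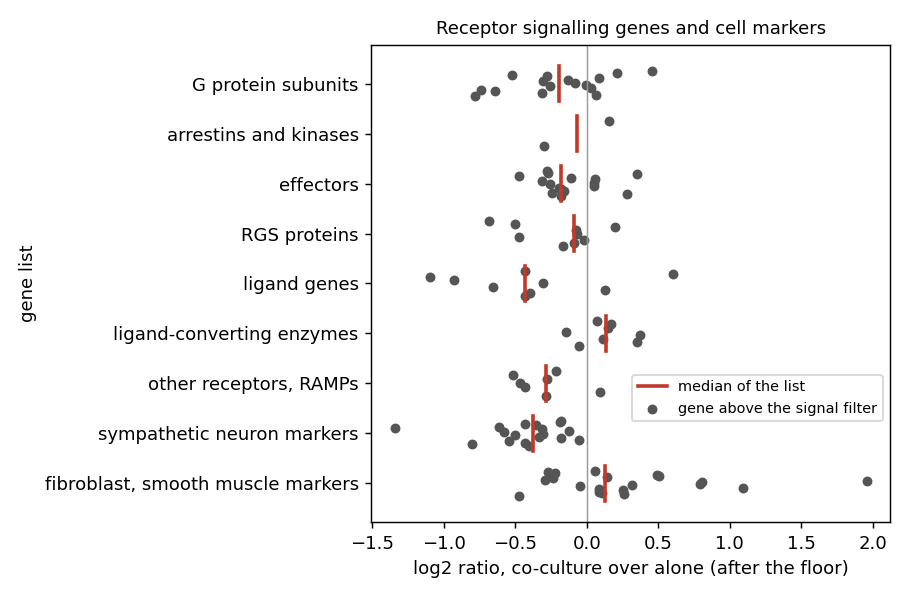
Log2 ratio of co-culture over alone of each gene above the signal filter, by gene list, with the median of each list as a red bar. Npy, Th and Dbh are drawn in both the ligand and the neuron row. Among the lists drawn, medians run from -0.43 for the ligand genes to 0.13 for the ligand-converting enzymes (cardiac, glial, endothelial and macrophage markers are not drawn), and every sympathetic neuron marker lies below 0 in the values as deposited.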

How the data were processed

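RNA of 2 samples was measured on 1-colour Affymetrix Rat Expression Set 230A arrays, 1 per condition, and grouped by sample title. Each deposited value is a linear intensity of a probe set. The authors quantified the arrays with dChip 1.3, per the series' design text, while the submitters' processing notes name MAS5. Which of them gave the deposited intensity is not given in the sources used here. The number of arrays limits the precision.

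From there, control probe sets (57 of 15923) were left out, intensities under the pooled 20th percentile (39.6) were raised to it, and log2 ratios (co-culture over alone) were formed with no further normalization (trimmed means 360.6 and 367.6). The platform annotation gave 12783 of the other 15866 probe sets 1 symbol, 312 several and 2771 none, and symbols were brought up to GRCr8 RefSeq names. Technical spread came from genes with several probe sets: the SD of the gap between the ratios of the brightest and second brightest, over the square root of 2, in 4 groups by signal. The calculation was tested on simulated data. Python 3.11.15, pandas 2.3.3 and statsmodels 0.14.6 were used.

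Members and lists were chosen with earlier results of these data known. All receptor genes above the filter were named, then the 2 brightest of each ligand class below it, then up to 4 genes of each list past 1.5-fold or else its 2 brightest, and the 3 brightest of the neuron and fibroblast lists. Exceptions are marked where they occur, and the remaining members are given by name or range. The floor, filter, scaling and choice of probe set were varied.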

Additional observations from a re-analysis of the deposited data

How the results depend on the processing

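Precision is limited by 1 array per condition and by signals near background. No paired analysis was possible because each condition has a single array. The direction of Tacr1, F2rl1, Sstr3, Adra1b, Lpar1, Agtrap and P2ry6 was the same under all 10 alternatives run for single genes, whereas F2r, F2rl2, S1pr2 and S1pr3 changed sign in 2, 3, 4 and 1 of them. Tacr1 and F2rl1 reached the array median only in neurons alone, so a lower co-culture value was a condition of their entry. F2rl1, Sstr3, Adra1b, Agtrap and P2ry6 have a single probe set, so the probe set alternatives could not change their ratios. Their values lie above both floors, so moving or dropping the floor could not either. For these genes the same direction was thus partly fixed. Tacr1 ranged from -1.19 to -0.64, and the number of receptor genes at 2-fold, 1 as reported, was 0 under quantile normalization, lowess, the floor at the 40th percentile, a pseudocount, the filter in both arrays and the mean over probe sets. It was 2 once the filter was lowered to the 25th percentile or dropped, where 1.94% and 1.63% of all genes were at 2-fold. The number at 1.5-fold (1) was 0 under lowess and with the filter in both arrays. Under scaling to the spiked controls it was 3 (Tacr1, F2rl1 and Sstr3), where 6.96% of all genes were at 1.5-fold. It was 12 of 54 with the 25th percentile filter and 12 of 79 with none, against 9.58% and 8.06% of all genes. The number lower (9 of 11) was 36 of 54 and 38 of 79 with those filters, where 55.6% and 49.7% of all genes were lower. The median of the 11 genes (-0.19, or -0.13 without Agtrap) was -0.10 after quantile normalization and -0.11 under median scaling. It was -0.30 under scaling to the spiked controls, which put the median of all genes at -0.12. Under lowess it was -0.11 over the same 11 genes and -0.09 over the 10 that then passed the filter. With the filter in both arrays the median of the 9 passing genes was -0.039, and with no filter that of the 79 was 0. The median of all 79 (0) was -0.16 with no floor, against -0.05 for all genes. Under lowess and with the filter in both arrays Tacr1 did not pass the filter, which left none at 1.5-fold there. For the other changes the cause was not tested.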

Other observations

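Drd2, the dopamine autoreceptor gene, had 18.2 in co-culture and 77.8 alone, with a log2 ratio of -0.97 after the floor. Its value in co-culture was under the floor and that alone was under the array median. Htr5b (44.0 against 69.9, log2 ratio -0.67) was the remaining dim receptor gene past 1.5-fold that was not given its values above.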
